A study of Canis lupus familiaris with 40 samples.

Results

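PMN-MDSCs of tumor-bearing dogs were set against neutrophils of healthy dogs (H PMNs), using every library whose label gave either population: 9 PMN-MDSC and 5 H PMN libraries, 14 of the 40 in the series. For PMN-MDSCs and for neutrophils of tumor-bearing dogs, the series' design text gives one fewer than there are labelled libraries and does not say why, so that all were kept. The question was which genes differ in level between these suppressive blood cells and the neutrophils of animals without a tumor. PMN-MDSCs had been sorted by flow cytometry from the hypodense mononuclear layer of a density gradient as CD5−CD21−MHCII−CD11b+ cells positive for the canine neutrophil marker CADO48A and negative for CD14. H PMNs had been sorted as CD5−CD21−MHCII−CD11b+CADO48A+ cells from the hyperdense pellet, so that both disease state and density fraction differ between the groups and cannot be told apart. The 10 libraries of neutrophils from tumor-bearing dogs (C PMNs), sorted from the pellet like H PMNs, serve as a further point, since they share the disease state with PMN-MDSCs and the density fraction with H PMNs. The tumor-bearing dogs had tumors of various histotypes, and the labels give no age, sex or dog for any library. P-values therefore measure the spread between libraries, some of which may share a dog. For some transcripts the paper names neutrophils of the same patient as the reference of PMN-MDSCs. Since the labels link no libraries, the fits against C PMNs were unpaired.

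Myeloid-derived suppressor cells are myeloid cells that dampen T cell responses and become more frequent in the blood in cancer. Their polymorphonuclear form shares surface markers with neutrophils, and a density gradient is one way of separating them from mature neutrophils, which are denser. Monocytes belong to a separate myeloid lineage and are told from neutrophils by CD14.

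Depth was 6299310 to 43296791 counts on genes per PMN-MDSC library (median 35478599). The 5 H PMN libraries held 54874602, 41788116, 28298329, 60473238 and 34119909 counts. All H PMN libraries belonged to the library series GAR4079 (the first characters of the library name), whereas PMN-MDSC replicates 1 to 5 belonged to GAR4079 and replicates 6 to 9 to PAT4694. C PMN replicates 1 to 6 were in GAR4079 and replicates 7 to 10 in PAT4694.

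Several libraries stood apart. PMN-MDSC replicate 9 was the only library of the 14 under 10000000 counts, with 3959 genes at 10 counts or more and 58.7% of its counts on its 10 most abundant genes. C PMN replicate 7 was similar, with 4229857 counts, 3470 such genes and 63.9%. At ordinary depth, PMN-MDSC replicates 3 and 8 lay close to H PMNs in the genes that told the groups apart. This was measured by leaving out each library in turn, taking the genes called without it, and finding its median position between the mean of H PMNs, at 0, and the mean of the other PMN-MDSCs, at 1, on log2 CPM. CPM is a gene's counts scaled to a common library total, and log2 CPM here also carries edgeR's TMM scaling factors and a prior count of 2. The TMM factors were 0.210 in both low-depth libraries and 0.828 to 1.39 in the other 22, so that log2 CPM lies well above plain CPM in those 2. For the genes higher in PMN-MDSCs, replicate 3 lay at 0.10 and replicate 8 at 0.272, replicate 9 at 0.537, and the other 6 at 1.01 to 1.33. For the lower genes, replicates 3 and 8 lay at 0.134 and 0.310, replicate 9 at 2.69, and the other 6 at 0.910 to 1.10. H PMN libraries left out in the same way lay between -0.020 and 0.112 for the higher genes and between -0.151 and 0.173 for the lower genes. Replicate 3 thus fell within the H PMN libraries on both lists, although its label gives PMN-MDSC, and it was kept under that label. With library size alone in place of TMM, a scaling chosen after seeing the data, replicate 3 lay at 0.0907 and 0.146 and replicate 8 at 0.379 and 0.213, with H PMN libraries up to 0.198 and 0.115, so that replicate 3 was just above them on the lowered genes. Replicate 9 then lay at -0.391 and 4.59, so that its place among the raised genes rested on the scaling.

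**Figure D1:**
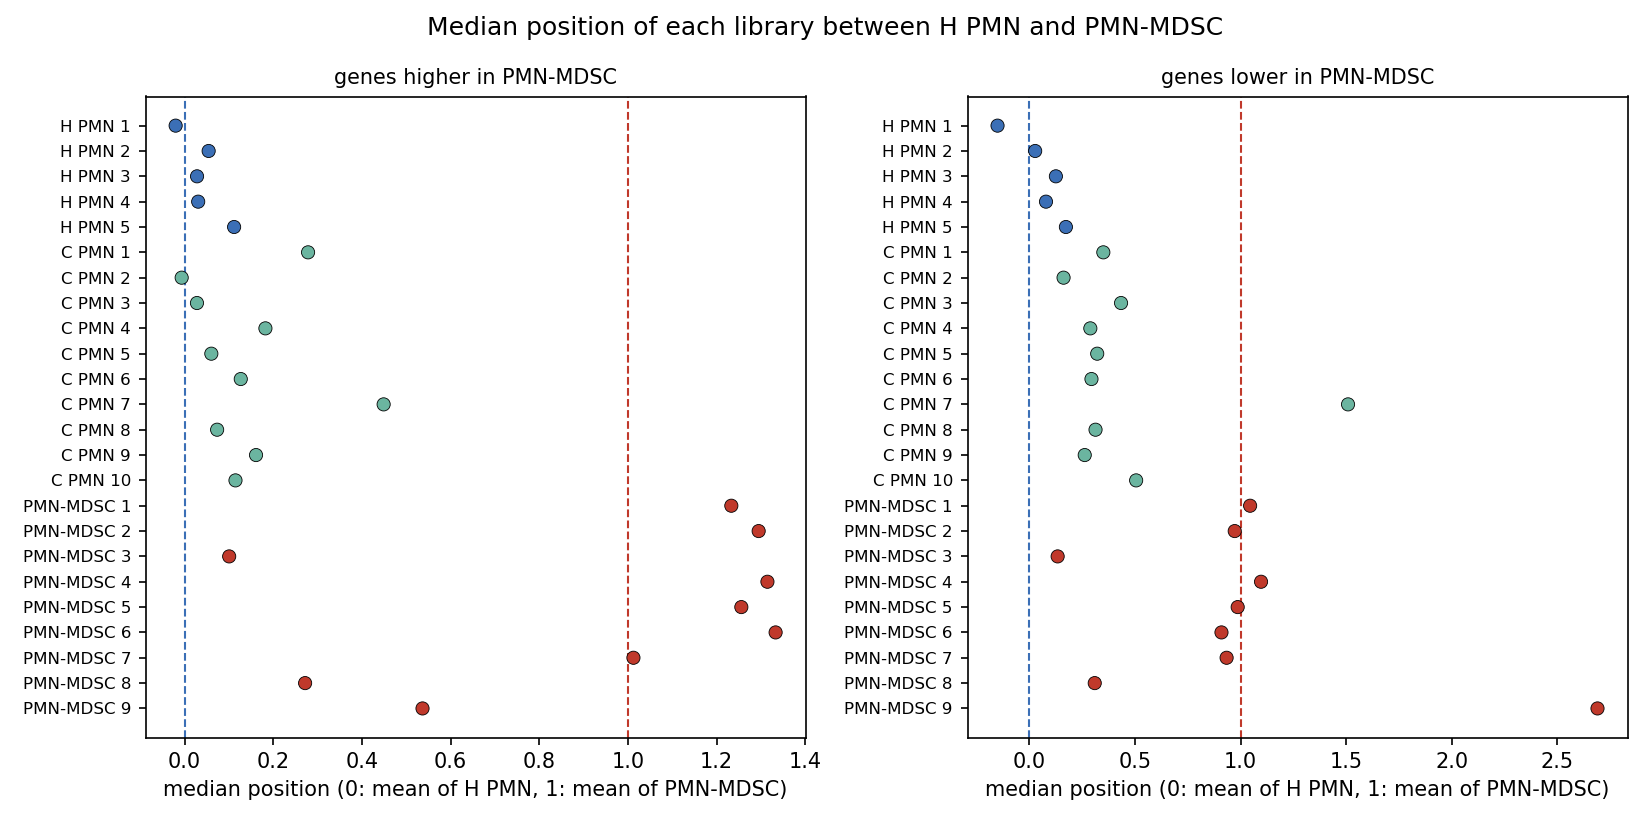
Each point is a library, and the x axis gives its median position between H PMNs (0) and PMN-MDSCs (1), for genes higher (left) and lower (right) in PMN-MDSCs; PMN-MDSC and H PMN libraries were left out when their genes were chosen. PMN-MDSC replicate 3 lies at 0.10 and 0.134, among the H PMN libraries, and replicate 9 at 0.537 and 2.69.

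In PMN-MDSC replicates 1, 2 and 4 to 7, 86.5% to 99.3% of the genes called higher without the library exceeded all 5 H PMN libraries in it, against 31.6% to 34.6% of all genes tested. In replicate 3 the share was 32.2%, against 18.7% of all genes, in replicate 8 it was 48.2% against 24.2%, and in replicate 9 it was 53.6% against 27.6%. Of the genes called lower, 91.0% to 96.8% were below all H PMN libraries in replicates 1, 2 and 4 to 7, against 30.5% to 36.3% of all genes, with 35.4% against 18.4% in replicate 3, 63.3% against 25.1% in replicate 8 and 83.9% against 58.4% in replicate 9. The H PMN mean takes part in both the choice of genes and the position, so these shares describe the libraries and are not a test.

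Of 24580 genes counted, 11372 passed the filter on low counts, and 1053 of them (9.26%) differed between PMN-MDSCs and H PMNs at an FDR of at most 0.05 in edgeR's quasi-likelihood test. Higher in PMN-MDSCs were 823 genes (7.24%) and lower were 230 (2.02%), and 3285 had an unadjusted p under 0.05. The raised genes had a median log2 fold change of 3.39 (quartiles 2.41 and 4.78), which is 10.5-fold. The lowered genes had a median of -1.73 (quartiles -2.19 and -1.38), a 3.31-fold difference, while over all genes tested the median was 0.16 and 55.9% were above 0. With DESeq2's size factors that overall median was 0.22, and with library size alone it was 0.02, where 90.7% of calls were higher in place of 78.2%. Limma voom with quality weights for libraries called 2479 genes higher and 2430 lower, so that 50.5% of its calls were higher. Those weights were 0.245, 0.318 and 0.394 in PMN-MDSC replicates 9, 3 and 8 and up to 2.67 in H PMNs. Without weights, a setting chosen after seeing the data, it called 528 higher and 628 lower, or 45.7% higher. The excess of raised genes was thus not seen with limma voom, with or without weights, and the weights raised its number of calls. Fewer cells of a type and less RNA per cell cannot be told apart in these libraries, which were made from bulk RNA of sorted cells.

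The count of calls depended on which libraries of both groups were included. Without the low-depth PMN-MDSC replicate 9, 2268 of 11315 genes (20%) were called, 1509 higher and 759 lower. Without replicate 3 there were 1935 calls and without replicate 8 there were 1624, whereas without replicates 1, 2, 4 or 5 there were 648, 673, 693 and 696. Leaving out H PMN replicates 1 to 5 in turn gave 277, 330, 369, 346 and 407 calls, so that the fall was not tied to a particular H PMN library. Among the raised genes, 228 (27.7%) were called whichever of the 14 libraries was left out, and among the lowered genes 25 (10.9%). Without replicate 9, 819 of the raised (99.5%) and all 230 of the lowered genes (100%) were called again.

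Within GAR4079 alone, which holds all H PMN libraries and 5 of the PMN-MDSC libraries, 2575 of 10839 genes (23.8%) were called, 1672 higher and 903 lower. These included 753 of the 823 raised genes (91.5%) and 224 of the 230 lowered genes (97.4%). With the library series as a term of the fit, 651 genes were called, among them 525 of the raised (63.8%) and 64 of the lowered genes (27.8%). No H PMN library was in PAT4694, so that series gives no comparison of its own with healthy dogs.

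PAT4694 does hold C PMNs, and the genes called in GAR4079 were examined there in 4 PMN-MDSC and 4 C PMN libraries, none of which had taken part in calling them. Of the 1672 genes raised in GAR4079, 83.9% had a higher mean log2 CPM in the PMN-MDSCs of PAT4694 than in its C PMNs, with a median difference of 1.13. Of the 903 lowered genes, 87.3% were lower there, with a median of -0.85. Among all 10839 genes tested, 46.9% were higher and the median was -0.08. Without the low-depth library of each group, 90.3% of the raised genes were higher and 94.4% of the lowered genes were lower. Most of these genes were on the same side in both series, although in PAT4694 the reference was neutrophils of tumor-bearing and not of healthy dogs.

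Raised and lowered genes differed in how large their changes were and in how the libraries overlapped. At least 4-fold differences were found in 692 of the raised genes, at least 10-fold in 427 and at least 100-fold in 67. Among the lowered genes the numbers were 79, 12 and 1. In 4 raised genes no H PMN library had any counts, and in 1 lowered gene no PMN-MDSC library had any, so that their fitted folds have no measured level on one side. With these set at a bound of 3 counts per library, the median was 3.38 for the raised genes and -1.73 for the lowered genes. At that bound 425 raised genes were at least 10-fold and 63 at least 100-fold, with 11 and 0 of the lowered genes. The lowered gene, at 19 to 50 counts in H PMNs, had a log2 fold change of -7.91 as fitted and -2.64 at the bound. In 69 of the raised genes (8.38%), every PMN-MDSC library was above every H PMN library, as in 78 of all genes tested (0.686%). Without replicate 9 this held for 168 of the raised genes (20.4%) and 228 of all genes (2.0%). Among the lowered genes, every PMN-MDSC library was below every H PMN library in 126 (54.8%), with or without that library, against 274 of all genes (2.41%) with it and 282 (2.48%) without it. Genes that change little are called only where libraries vary little, so that these shares follow in part from the call.

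Levels were compared between genes on TPM, a unit that is scaled to gene length as well as to the library. The raised genes had a median level of 1.21 TPM in H PMNs, 1.63 TPM in C PMNs and 10.3 TPM in PMN-MDSCs. The lowered genes had medians of 41.1, 20.3 and 11.7 TPM. All genes tested had medians of 5.65 TPM in H PMNs, 4.62 TPM in C PMNs and 6.32 TPM in PMN-MDSCs. In neutrophils the median of the raised genes was thus below that of all genes tested, and the median of the lowered genes above it. When the genes tested were divided by their mean over the 24 libraries of PMN-MDSCs, H PMNs and C PMNs, the share raised was 5.07% below 1 TPM, 9.18% between 1 and 10 TPM, 6.91% between 10 and 100 TPM and 5.26% at 100 TPM or more. The share lowered was 0.707%, 1.32%, 2.86% and 5.00% in the same order. Raised genes outnumbered lowered genes in the first of these classes by 122 to 17, and in the last the numbers were 59 and 56.

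**Figure D2:**
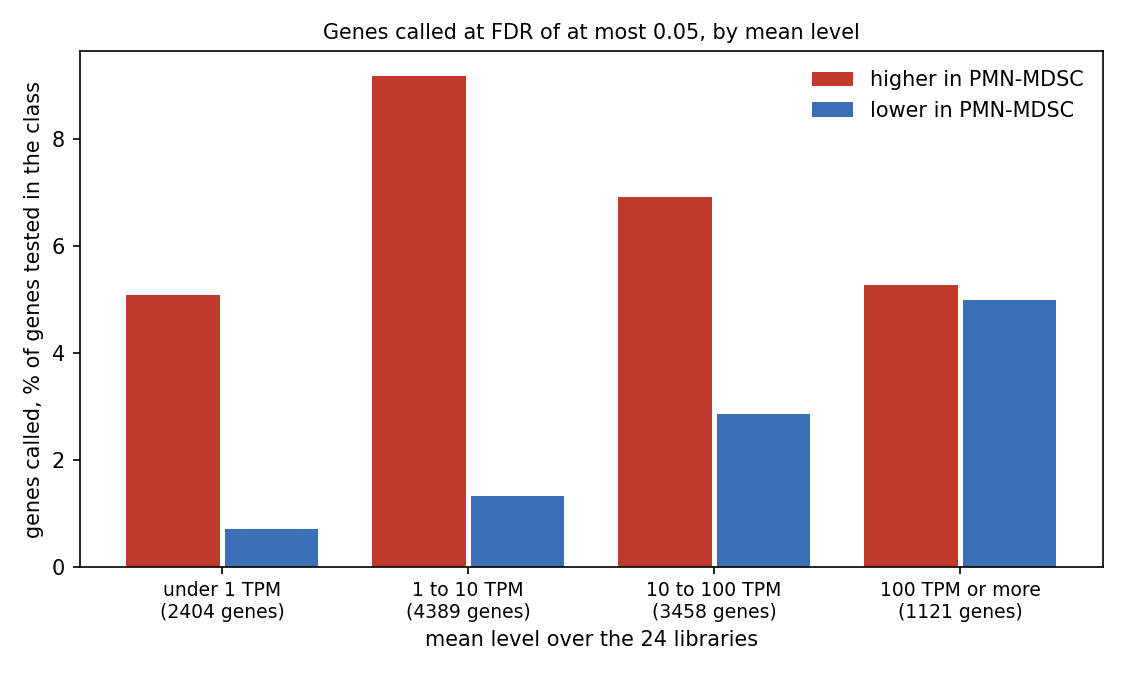
Bars give the percentage of genes tested that were called higher (red) or lower (blue) in PMN-MDSCs, in classes of mean TPM over 24 libraries on the x axis. The share lowered goes from 0.707% in the lowest class to 5.00% in the highest.

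In the highest class, at 100 TPM or more, the 59 raised genes had a median of 48.7 TPM in H PMNs, 83.0 TPM in C PMNs and 427 TPM in PMN-MDSCs. The 56 lowered genes of that class had medians of 351 TPM in H PMNs, 209.5 TPM in C PMNs and 111 TPM in PMN-MDSCs. In both sets the C PMN level lay between the other populations. These classes and medians describe genes chosen on the same libraries.

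The raised genes held a larger share of the counts in most PMN-MDSC libraries than in neutrophils. They held 0.956% to 1.51% of the counts of the H PMN libraries and 0.929% to 5.01% in C PMNs. In PMN-MDSC replicates 1, 2 and 4 to 7 the share was 19.5% to 23.9%, in replicate 3 it was 1.83%, in replicate 8 it was 2.77% and in replicate 9 it was 12.5%. Replicates 3 and 8 lay within the range of C PMNs. The genes were called on these PMN-MDSC and H PMN libraries, so that a higher share in PMN-MDSCs follows from the choice of genes. The same genes held 13% to 16.2% of counts in C MONOs (monocytes of tumor-bearing dogs), 12.6% to 14.9% in H MONOs (monocytes of healthy dogs) and 9.98% to 12.7% in M-MDSCs, the monocytic form of suppressor cells, so that a share above that of neutrophils was not particular to PMN-MDSCs. The lowered genes held 5.57% to 6.16% of counts in H PMNs, 0.453% to 4.86% in C PMNs and 0.10% (replicate 9) to 3.69% (replicate 3) in PMN-MDSCs. The 95% Wilson intervals of these shares reached at most 0.0258 percentage points to either side, and they cover counting error only, since reads and not molecules were counted.

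A single transcript was the most counted gene in 6 of the 9 PMN-MDSC libraries. Its level there was 433 to 43657 TPM (median 34142), with 1733 TPM in replicate 3, 2957 TPM in replicate 8 and 433 TPM in replicate 9. In H PMNs it lay between 657 and 2211 TPM (median 1194), in C PMNs between 93.7 and 5934 TPM (median 1795) in C MONOs between 83.2 and 365 TPM and in M-MDSCs between 467 and 2875 TPM (median 2323). Replicate 3 lay inside the H PMN range, replicate 9 below it and replicate 8 above it, within the range of C PMNs, and the other 6 libraries far above every neutrophil library. It was raised by a log2 fold change of 4.35 with a standard error of 0.90 (edgeR, adjusted p = 0.0112). By mean TPM, the most abundant gene was one and the same in PMN-MDSCs, H PMNs and C PMNs, with medians of 70485, 36824 and 39795 TPM, and it was not called (adjusted p = 0.0998 from edgeR).

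The count table gives Ensembl IDs without gene names, and 0 of the 24580 IDs could be paired with a symbol, so that what the following genes encode is not given here. For each direction, 2 genes were taken by smallest FDR from those that changed at least 2-fold and whose PMN-MDSC and H PMN libraries did not overlap, so that their separation follows from the choice.

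ENSCAFG00000004765 was at 7.22, 20.4, 39.5, 21.1 and 21.5 CPM in the 5 H PMN libraries. In PMN-MDSCs it was at 139 to 16967 CPM (median 10969), with the lowest value in replicate 3, followed by 687 CPM in replicate 8 and 2003 CPM in replicate 9. C PMNs were at 2.60 to 152 CPM (median 31.0), which overlaps with PMN-MDSCs only at replicate 3. All 9 PMN-MDSC libraries were above all H PMN libraries, and 6 of them were at 7654 CPM or more. The log2 fold change against H PMNs was 8.78 (standard error, SE, 1.17, edgeR adjusted p = 0.0040). Against C PMNs it was 6.98 (SE 0.94, adjusted p = 0.000173), and between C PMNs and H PMNs 1.80 (SE 0.81, adjusted p = 0.517). In C MONOs the gene was at 0.0367 to 71.1 CPM, so that neither neutrophils nor monocytes reached the level of most PMN-MDSCs.

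ENSCAFG00000029775 was near the limit of detection in H PMNs, with 0 to 5 counts and at most 0.0911 CPM. In PMN-MDSCs it had 30 to 6536 counts, or 1.15 CPM in replicate 8 and 3.21 CPM in replicate 3 up to 228 CPM (median 40.7). C PMNs had 0 to 14 counts and at most 1.42 CPM (median 0.0963), C MONOs 0 to 17 counts, and the 3 libraries of H MONOs 0 counts. Only the highest C PMN library, replicate 7, reached above the lowest PMN-MDSC library. The log2 fold change was 10.33 against H PMNs (SE 1.38, edgeR adjusted p = 0.0040) and 8.04 against C PMNs (SE 1.19, adjusted p = 0.000319). The gene did not pass the filter for C PMNs against H PMNs and was tested only through its level in PMN-MDSCs. With so few counts in neutrophils, the size of both fold changes is uncertain.

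ENSCAFG00000004282 fell. It was at 85.1, 84.8, 58.3, 68.4 and 48.9 CPM in H PMNs and at 1.27 (replicate 9) to 32.5 CPM (replicate 3) in PMN-MDSCs, with a median of 16.7 CPM. C PMNs spread from 13 to 74.9 CPM (median 37.3) and overlapped with both. The log2 fold change was -1.93 (SE 0.31, edgeR adjusted p = 0.0069) against H PMNs and -1.53 (SE 0.28, adjusted p = 0.00145) against C PMNs. Between C PMNs and H PMNs it was -0.37 (SE 0.28, adjusted p = 0.728).

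ENSCAFG00000014600 fell as well, with another order of the populations. It was at 69.5, 42.2, 42.1, 41.0 and 56.9 CPM in H PMNs, and at 0 to 16.4 CPM (median 7.95) in PMN-MDSCs. The 0 was in replicate 9, whose depth allows up to 0.476 CPM at a count of 0. C PMNs lay at 0 (replicate 7) to 47.3 CPM (replicate 9), with a median of 6.88 CPM. All C PMN libraries other than replicate 9 were thus as low as PMN-MDSCs. The log2 fold change was -2.73 (SE 0.47, edgeR adjusted p = 0.0086) against H PMNs and -0.53 (SE 0.65, adjusted p = 0.621) against C PMNs. Between C PMNs and H PMNs it was -2.15 (SE 0.67, adjusted p = 0.335).

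**Figure D3:**
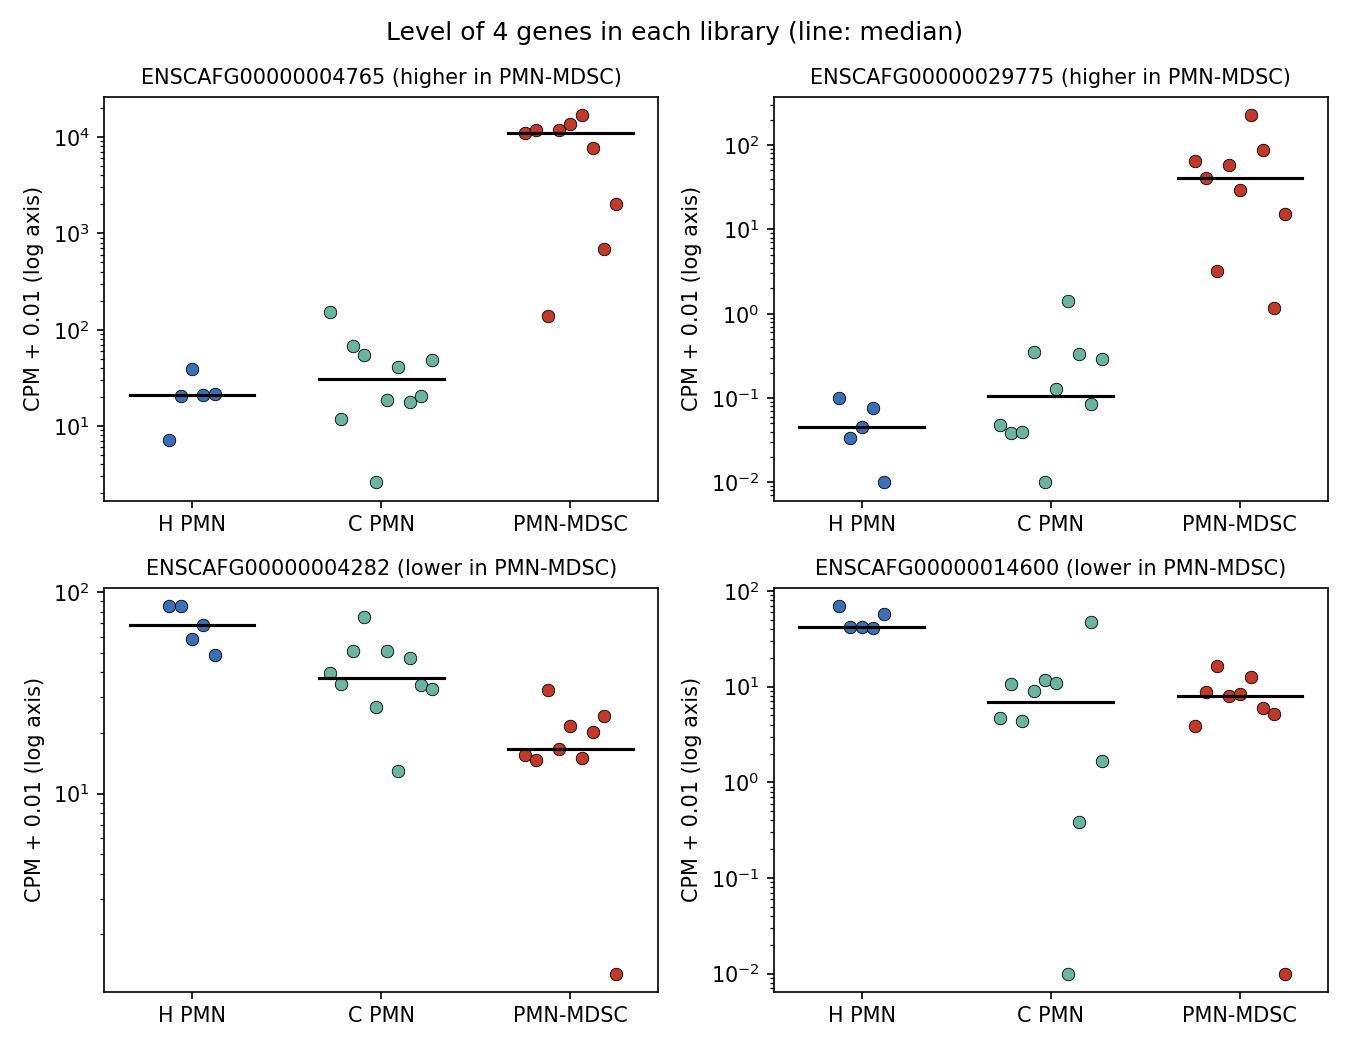
Points are libraries, lines are medians, and the y axes give CPM plus 0.01 on a log scale for 2 raised (top) and 2 lowered (bottom) genes. For ENSCAFG00000014600, at the lower right, the C PMN median of 6.88 CPM lies next to the PMN-MDSC median of 7.95 CPM and below every H PMN library.

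For each changed gene, the level in C PMNs was placed on the scale from H PMNs (0) to PMN-MDSCs (1) on mean log2 CPM. Both ends of this scale also chose the genes, so that the positions are a description without a test. For the raised genes, the median position of C PMNs was 0.142 (quartiles -0.044 and 0.310). Below 0.25, and so nearer to H PMNs, were 561 (68.2%), 231 (28.1%) were between 0.25 and 0.75, and 31 (3.77%) were above 0.75. For the lowered genes the median was 0.467 (quartiles 0.333 and 0.612), with 32 (13.9%) nearer to H PMNs, 167 (72.6%) between and 31 (13.5%) nearer to PMN-MDSCs. In raised genes C PMNs mostly resembled H PMNs, and in lowered genes they mostly lay between. With library size alone in place of TMM, the medians were 0.00719 for the raised and 0.612 for the lowered genes.

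The place of C PMNs on the lowered genes depended in part on C PMN replicate 7, the low-depth library. That library lay at 1.51 on the lowered genes and 0.449 on the raised genes (2.30 and -0.304 with library size alone), whereas the next highest lay at 0.506 (replicate 10) and 0.278 (replicate 1). Without it, the median position of the lowered genes was 0.341, and 76 were nearer to H PMNs, 137 between and 17 nearer to PMN-MDSCs. Without the low-depth libraries of both populations, the medians were 0.102 for raised and 0.392 for lowered genes, and within GAR4079 they were 0.111 and 0.358.

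Set side by side, the 3 pairwise comparisons share libraries and are not independent of each other. Against C PMNs, 1032 of 10278 genes (10%) were called in PMN-MDSCs. Between C PMNs and H PMNs, edgeR called 0 of 10871 genes (0%), with 1002 at an unadjusted p under 0.05, while DESeq2 called 259 and limma voom 133 with weights and 2 without. Leaving out C PMN replicate 4 or replicate 9 gave 1 call each, and against C PMNs the count was 1632 without PMN-MDSC replicate 3 and 2039 without C PMN replicate 7. For the raised genes the median log2 fold change was 3.39 for PMN-MDSCs against H PMNs, 2.27 for PMN-MDSCs against C PMNs (736 genes tested) and 0.78 for C PMNs against H PMNs (671 genes tested). For the lowered genes the medians were -1.73, -1.06 (221 genes tested) and -0.62 (229 genes tested). Whether C PMNs differ from H PMNs in these genes as a set was not tested.

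Of the raised genes, 30 had at most 3 counts in every H PMN library, out of 35 such genes among those tested. Genes so low in H PMNs could pass the filter only through PMN-MDSCs, and their number is no support for a direction. Of these 30, 6 also had at most 3 counts in every C PMN library. Their median level was 2.03 TPM in PMN-MDSCs, with 35.8 TPM as the highest, against 0.0586 TPM in C PMNs and 0.221 TPM in C MONOs. Only 3 of them had over 3 counts in all 9 PMN-MDSC libraries.

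The level of the raised genes in monocytes was examined since monocytes, like the sorted cells, carry CD11b. Median levels of the raised genes were 10.9 TPM in C MONOs, 10.3 TPM in H MONOs and 10.5 TPM in M-MDSCs. All genes tested had medians of 9.68, 10.1 and 10.1 TPM there, near those of the raised genes. In H PMNs the raised genes were far lower, and mean log2 CPM was higher in C MONOs than in H PMNs in 657 of them (79.8%), with a median difference of 2.10. This was so in 17 of the lowered genes (7.39%, median -2.33) and in 48.8% of all genes tested (median -0.06). C MONOs were at or above PMN-MDSCs in 390 of the raised genes (47.4%), against 61.8% of all genes tested. At the other end, C MONOs were below 10% of the PMN-MDSC level in 145 of the raised genes (17.6%), against 4.98% of all genes. In 75 raised genes (9.11%) all 5 other populations were below 10% of the PMN-MDSC level, as in 81 of all genes tested (0.712%). Raised genes were chosen for a high level in PMN-MDSCs and a low one in H PMNs, which fixes part of each of these shares, so that the shares over all genes are no measure of what chance gives.

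To follow genes that separate the lineages, lineage lists were taken from C PMN and C MONO libraries, which are outside the comparison. A gene was placed on the neutrophil or the monocyte side where its mean was at least 50 CPM in its own lineage and at least 50-fold lower in the other, with no overlap between libraries. The monocyte side held 197 genes, of which 188 were tested, 66 were raised (35.1%, against 7.24% of all genes tested) and 0 were lowered by edgeR (against 2.02%). Their median log2 fold change was 2.47, and 178 were above 0. These genes were chosen to be low in C PMNs, which were sorted from the pellet like H PMNs. They thus had little room to be lower in PMN-MDSCs than in H PMNs. The shares raised and lowered follow in part from that choice. The neutrophil side held 30 genes, all tested, of which 4 were raised (13.3%) and 4 lowered (13.3%), with a median of -0.37. Neutrophil-side genes were at a median of 66.9% of their C PMN level in PMN-MDSCs, whereas monocyte-side genes were at 1.87% of their C MONO level (quartiles 1.09% and 3.65%).

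The monocyte-side genes together held 0.0337%, 0.0473%, 0.0310%, 0.0755% and 0.0507% of the counts in the H PMN libraries. In PMN-MDSC replicates 1 to 9 they held 0.777%, 0.609%, 0.0506%, 0.838%, 0.747%, 0.866%, 0.519%, 0.230% and 0.136%. All PMN-MDSC libraries other than replicate 3 were above all H PMN libraries. C PMNs held 0.0250% to 0.172%, M-MDSCs 6.45% to 9.05%, C MONOs 9.23% to 13.3% and H MONOs 10.5% to 11.3%, so that PMN-MDSCs were well below each monocytic population. The mean was 0.530% ± 0.316 (SD, n = 9) in PMN-MDSCs and 0.0477% ± 0.0177 (SD, n = 5) in H PMNs, an 11.1-fold difference (two-sided exact permutation test over 2002 divisions, p = 0.0030, 0.00999 after Benjamini-Hochberg adjustment over 5 library measures). Without replicate 9 the difference was 12.2-fold (exact permutation test, adjusted p = 0.0155), and within GAR4079 it was 12.7-fold (exact permutation test, adjusted p = 0.0397). The list was chosen for a low level in C PMNs. The direction of differences in its shares thus follows in part from the choice.

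A single gene made up 53.8% of the monocyte-side counts of PMN-MDSCs. It was at 42.4 (replicate 9) to 5389 CPM (replicate 6) in PMN-MDSCs (median 3592), 20.6 to 282 CPM in H PMNs (median 29.2), 15.1 to 188 CPM in C PMNs and 3995 to 6273 CPM in C MONOs (median 4742). In replicates 1, 2 and 4 to 7 it was at 3508 CPM or more, near or within the C MONO range, and replicates 3 and 9 were within the H PMN range. The other 196 genes held 0.245% ± 0.136 (SD, n = 9) of counts in PMN-MDSCs and 0.0397% ± 0.00919 (SD, n = 5) in H PMNs, a 6.17-fold difference in a sum chosen after seeing the data (two-sided exact permutation test, unadjusted p = 0.0040). Without that gene too, 8 of 9 PMN-MDSC libraries were above all H PMN libraries, the exception again being replicate 3, at 0.0431%.

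**Figure D4:**
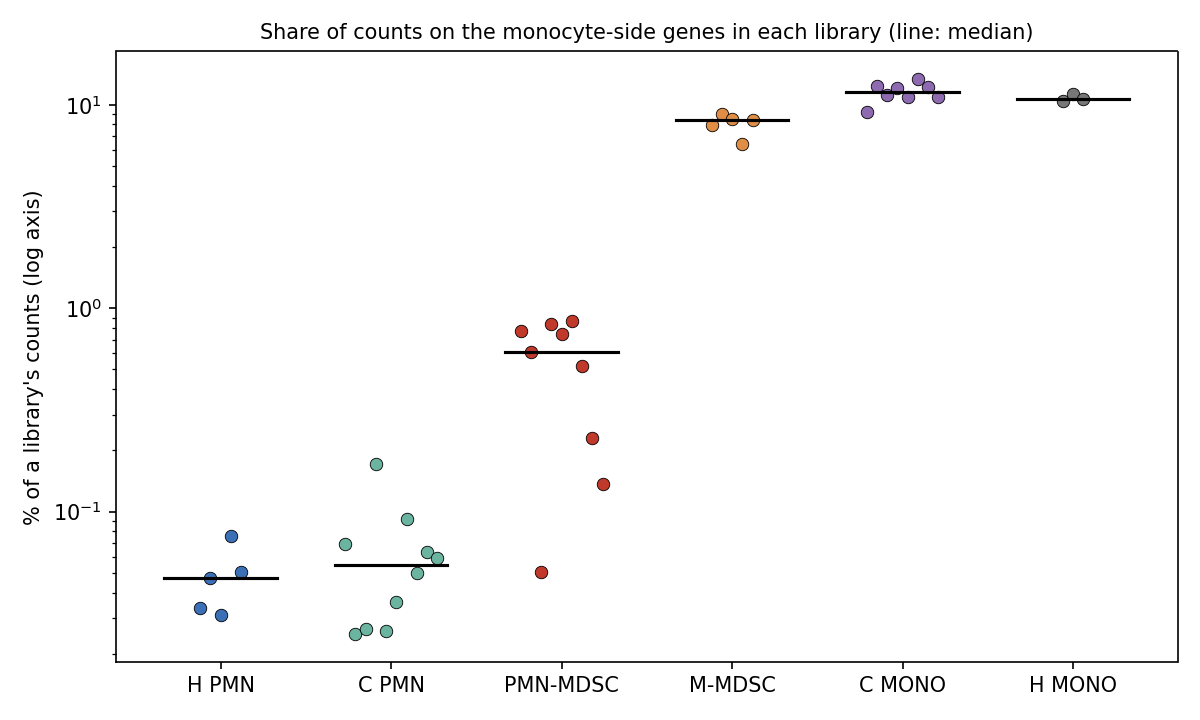
Points are libraries, lines are medians, and the y axis gives the percentage of a library's counts on the 197 monocyte-side genes, on a log scale. PMN-MDSC libraries lie between 0.0506% and 0.866%, above H PMNs other than at replicate 3 and below the 6.45% of the lowest M-MDSC library.

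Summed over the monocyte-side genes, the level in PMN-MDSCs was 0.439% (replicate 3) to 7.51% (replicate 6) of that in C MONOs, against 0.269% to 0.655% in H PMNs. The median gene of the list gave another picture. It was at 0.222% of its C MONO level in replicate 3, 0.237% in replicate 7 and 0.280% in replicate 9, within the 0.191% to 0.539% of H PMNs, and at 1.07% to 3.66% in the other 6 libraries. The gene of the list most abundant in C MONOs was at 11556 to 26244 CPM in C MONOs (median 18489), 7.18 to 468 CPM in PMN-MDSCs (median 114) and 8.41 to 35.4 CPM in H PMNs (median 25.9). Between PMN-MDSCs and H PMNs its log2 fold change was 3.47 (SE 0.95, edgeR adjusted p = 0.0346). Of the 197 genes, 1 to 32 had no counts in a PMN-MDSC library and 3 to 29 in an H PMN library. What part monocyte RNA has in the raised genes was not tested.

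The neutrophil-side genes were detected in every PMN-MDSC library, apart from 1 gene without counts in replicate 9. They held 14.8% ± 10.5 (SD, n = 9) of the counts in PMN-MDSCs and 6.29% ± 1.01 (SD, n = 5) in H PMNs (two-sided exact permutation test, p = 0.00899, adjusted p = 0.0112), with 7 of 9 libraries above all H PMNs. Without replicate 9 the PMN-MDSC mean was 11.5% ± 3.59 (SD, n = 8; exact permutation test, adjusted p = 0.0175). C PMNs held 4.60% to 15.5% without their low-depth library and 28.1% in it, and so overlapped with PMN-MDSCs. The sum was higher in PMN-MDSCs than in H PMNs, but the median gene of the list was not. Its log2 fold change was -0.37, and 14 of the 30 genes were above 0. The most abundant gene of this list was at 25210 to 154806 CPM in PMN-MDSCs (median 42342), 16115 to 25950 CPM in H PMNs (median 22598) and 115 to 988 CPM in C MONOs, and it was not called between PMN-MDSCs and H PMNs (edgeR, adjusted p = 0.109). Both lists place the PMN-MDSC libraries on the neutrophil side, as labelled.

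PMN-MDSC libraries were also more concentrated on few genes than H PMN libraries. The 10 most abundant genes of a library held 26.4% ± 13 (SD, n = 9) of its counts in PMN-MDSCs and 15% ± 0.708 (SD, n = 5) in H PMNs (two-sided exact permutation test, p = 0.0050, adjusted p = 0.00999), with 8 of 9 libraries above all H PMNs. The first gene alone held 7.04% ± 4.42 (SD, n = 9) and 2.45% ± 0.266 (SD, n = 5) (exact permutation test, p = 0.0060, adjusted p = 0.00999). C PMNs overlapped with PMN-MDSCs in both measures. Without the low-depth libraries, the 10 genes held 13.6% to 22.7% in C PMNs and 14.8% to 28.9% in PMN-MDSCs. The first gene held 2.14% to 5.60% and 2.52% to 7.51%. Genes at 1 CPM or more numbered 8658 ± 1580 (SD, n = 9) and 8676 ± 328 (SD, n = 5) (exact permutation test, p = 0.73). Without replicate 9 they numbered 9173 in PMN-MDSCs (exact permutation test, p = 0.0249), so that this last measure rested on the low-depth library.

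PMN-MDSC libraries differed among themselves more than H PMN libraries did. The biological coefficient of variation within the population was 0.932 in PMN-MDSCs, 0.464 in H PMNs and 0.806 in C PMNs. Without the low-depth libraries it was 0.768 in PMN-MDSCs and 0.674 in C PMNs, and within GAR4079 it was 0.709 and 0.627. The difference in spread was not tested.

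Between M-MDSCs and C MONOs, whose libraries take no part in the comparison, the raised genes did not follow the same direction as a list. M-MDSCs were above C MONOs in 264 of the 823 raised genes (32.1%), with a median log2 difference of -0.26. They were above C MONOs in 167 of the 230 lowered genes (72.6%), with a median of 0.22, while 44.0% of all genes tested were above and the median was -0.06.

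Calls were compared across the alternative settings other than limma voom without weights, and across every library left out. Those that held throughout were 99 raised genes (12%) and 4 lowered genes (1.74%). One of these settings, at least 10 counts in every library, tested only 3476 of the 11372 genes, with 350 of the raised and 90 of the lowered genes among them, so that genes it did not test count as not held. Without that setting, 200 raised (24.3%) and 19 lowered genes (8.26%) held under all other planned settings and left-out libraries, a count chosen after seeing the data. Of these, it had tested 99 and 4, which were all called there too. The 200 had a median log2 fold change of 4.43, with 2.01 as the smallest and 12.70 as the greatest. Their median levels were 1.18 TPM in H PMNs, 1.96 TPM in C PMNs and 22.2 TPM in PMN-MDSCs, and the median position of C PMNs was 0.158. In 66 of the 200 C MONOs were at or above the PMN-MDSC level, against 61.8% of all genes tested. In 64 they were below 10% of it, against 4.98% of all genes tested. The choice of raised genes fixes part of both counts. Genes of high and of low level in monocytes were thus both among them.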

How the data were processed

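RNA of sorted blood cells was made into Smart-seq2 and Nextera XT libraries. The authors aligned reads to CanFam3.1 with HISAT2 and deposited gene counts from featureCounts (Subread 1.5.0), without normalization, and TPM values whose gene lengths are not stated. The CPM tables were not used, and CPM was computed from the counts. Spike-ins held at most 0.000275% of counts and were left out.

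Counts were fitted with edgeR 4.0.16 (TMM, filterByExpr, quasi-likelihood test) in R 4.3.3, with Benjamini-Hochberg adjustment over all genes tested. DESeq2 1.42.0 and limma 3.58.1 were alternatives, with other scalings, filters, the library series and left-out libraries. Positions and differences in log2 CPM used TMM factors and a prior count of 2. Exact tests used scipy 1.17.1, tables pandas 2.3.3 and numpy 2.4.6, and plots matplotlib 3.10.9, under Python 3.11.15. The fits were tested on simulated data.

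The naming rule asked for 10 genes a direction by smallest FDR, with a symbol, an absolute log2 fold change of 1 or more and groups that do not overlap. Without symbols, 2 IDs of each direction were named, and the marker and pathway lists were not analysed here. The most abundant genes are given without IDs. The members and lists were chosen with earlier results of these data known. Level classes were first set by the H PMN mean, which is an end of the comparison, and after their values had been seen were set by the mean of 24 libraries. The left-out libraries and library size alone for the C PMN positions, the calls held without the 10-count setting, limma voom without weights, and the alternatives for the list shares, were chosen after seeing the data.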

Additional observations from a re-analysis of the deposited data

Results flagged for a closer look

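In each population of 4 to 10 libraries, a library was looked at again where its gap to the nearest other was large for the range of its group (Dixon's test at 95%). Over 30 groups of values this found 12 values in 4 libraries, where chance gives about 1 in 20 groups. PMN-MDSC replicate 9 had the fewest genes at 1 CPM or more (4533). Its first gene held 17.7% of counts, its 10 most abundant genes 58.7% and its neutrophil-side genes 41.3%. Its log2 CPM of ENSCAFG00000014600 was -4.26, at a count of 0 (log2 values are TMM-scaled, with 2 as prior count). C PMN replicate 7 had 4856 genes at 1 CPM or more, 18.6% of counts on its first gene, 63.9% on its 10 most abundant genes and 28.1% on the neutrophil-side genes. Its log2 CPM of ENSCAFG00000029775 was 2.76 with a TMM factor of 0.210, from 6 counts or 1.42 CPM, and 0.56 with library size alone. Both libraries were under 10000000 counts. At ordinary depth, the 10 most abundant genes of H PMN replicate 5 held 13.7% of counts, the lowest of its population. The monocyte-side genes of C PMN replicate 4 held 0.172%, the highest of its population.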

How the results depend on the processing

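For PMN-MDSCs against H PMNs, 7 of the 10 planned settings moved the 1053 calls by more than 1.5 times. There were 473 with library size alone, 626 (18% of only 3476 genes tested) with at least 10 counts in every library, 2742 with DESeq2, 4909 with weighted limma voom (1156 unweighted), 651 with the library series as a term, 2575 within GAR4079 and 2268 without the low-depth library. With a library left out, they ranged from 277 to 2268. Against C PMNs, the 1032 calls became 2261 with DESeq2, 4485 with limma voom, 1954 within GAR4079, 2355 without the low-depth libraries and 1790 with 3 populations in a fit, and ranged from 715 to 2039 with a library left out. For C PMNs against H PMNs there were 259 with DESeq2, 133 with weighted and 2 with unweighted limma voom, 2 with the series term and 94 within GAR4079, and 0 to 1 with a library left out. The cause was not tested.

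The 4 named genes kept direction and call in every planned setting and left-out library that tested them. Their log2 fold changes were 8.56 to 9.09, 9.54 to 10.80, -2.08 to -1.80 and -2.96 to -2.48, and the highest FDR was 0.0348. These genes were not examined under limma voom without weights. With at least 10 counts in every library, only ENSCAFG00000004765 was tested. The median C PMN position was 0.102 to 0.156 for raised and 0.341 to 0.533 for lowered genes, and 0.00719 and 0.612 with library size alone, a move for the raised genes. Without the list's gene that is highest in PMN-MDSCs, the monocyte-side share was 6.17-fold higher in PMN-MDSCs than in H PMNs in place of 11.1-fold, and the neutrophil-side share 2.35-fold with or without it. No paired analysis was possible because replicate numbers were given in accession order and the labels name no dog.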
